A study of Mus musculus with 16 samples.

Results

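The cell division genes are 42 mouse genes whose products drive, copy DNA for, or carry out the cell cycle, described here across sorted mouse lymphocytes. A gene was measured where the platform annotation pairs a probe set with its symbol alone, and the probe set with the highest mean log2 level over all 16 arrays stood for it. This gave 38 of the 42 genes, out of 8251 genes and 12422 tested probe sets on the array. Tyms was only on a probe set shared with another symbol and was not used, and no probe set was listed for Cdk6, Ccnb1 and Cdc25b. By role, 4 of 5 G1 cyclins and kinases were measured, 4 of 4 CDK inhibitors with Rb1, 18 of 19 genes of G1/S and DNA replication, and 12 of 14 genes of G2/M and mitosis.

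The study set an innate-like lymphocyte beside its adaptive counterpart in 3 pairs. NKT cells (CD3+CD4+NK1.1+, 3 arrays) stood against CD4T cells (CD3+CD4+NK1.1-, 3 arrays), both from spleen. CD8aaT cells (TCRb+CD8a+CD8b-, 3 arrays) stood against CD8abT cells (TCRb+CD8a+CD8b+, 3 arrays), both from a culture that the labels give only by its abbreviation, RTOC. The labels tie CD8aaT cells to selection by a high dose of the agonist Smcy (written there as 10 mM) and CD8abT cells to a low dose (100 nM), so dose and lineage are the same factor. Peritoneal B1 cells (IgM high, IgD intermediate, CD11b+, 2 arrays) stood against splenic B2 cells (IgM intermediate, IgD high, CD11b-, 2 arrays), so site and lineage are the same factor there. Spleen and peritoneal cells came from wild-type C57BL/6 mice, while no strain is named for the RTOC cells. The labels give no age or sex and do not say how many animals a sample pooled.

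Cell division runs in an ordered cycle. In G1, D-type cyclins switch on Cdk4 and its relatives, which phosphorylate the retinoblastoma protein Rb1 and release E2F factors, and CDK inhibitors hold this step back. E2F then raises the genes that license and copy DNA, and later in the cycle another set of genes, many of them repressed in resting cells through a promoter element called the CHR, builds the spindle and separates the chromosomes. Resting lymphocytes of the spleen and peritoneum are mostly out of cycle, and they are known to carry little mRNA of the mitotic genes until they are stimulated.

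Median intensity per array was 49.6 to 54.1 in the NKT and CD4T arrays, 30.4 to 31.9 in the RTOC arrays and 69.2 to 76.1 in the B cell arrays, so log2 levels were compared only within a pair. Between pairs, a gene was given by its percentile among the 12422 probe sets of the same array, with no test. No detection calls were used, so a level is not a statement that the gene was on, and the number of arrays limits the precision. Replicates 2 and 3 lay close together in NKT and in CD4T, with an SD of their log2 difference over all probe sets of 0.126 and 0.162. Their differences from replicate 1 had an SD of 0.383 to 0.634, and pairs of replicates in the other groups had 0.316 to 0.63. The 18S ribosomal RNA control also read 448 in NKT replicate 1 and 745 in CD4T replicate 1, against 165 to 191 in the other arrays of that pair. Results are therefore also given without replicate 1 where that changed them. In NKT and CD4T such results rest on the close replicates 2 and 3, and whether those are independent samples is not known. The sort labels matched lineage markers: 10 measured pan-T genes had median percentiles of 90.2 to 95.1 in the T cell groups and 55.1 and 56.6 in the B cell groups, and 11 measured pan-B genes had 98.7 in B1 and 99.2 in B2, against 59.3 to 75.4 in the T cell groups.

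In these genes the arrays of the RTOC culture stood apart from those of the tissues. Of the 38 genes, 22 had all 6 RTOC arrays, CD8aaT and CD8abT alike, at a higher percentile than all 10 arrays of spleen and peritoneal cells, and 0 had them all lower. Over all probe sets, 6.01% lay above in this way and 4.68% below. All RTOC arrays were above the others for 10 of 12 genes of G2/M and mitosis, 11 of 18 genes of G1/S and DNA replication, 1 of 4 inhibitors and 0 of 4 G1 cyclins and kinases. The median gap between the RTOC median and the median of the other arrays was 28.4 percentile points for G2/M and mitosis. It was 13.4 points for G1/S and DNA replication, beside 0.201 points over all probe sets. Points leave little room near the top of an array, so they do not rank genes by log2 difference. After quantile normalization over all arrays the median log2 gap of these roles was 2.16 and 1.02. It was 0.43 for G1 cyclins and kinases and 0.02 over all probe sets. These are levels in bulk RNA, where more cells in cycle and more RNA per cell cannot be told apart.

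**Figure D1:**
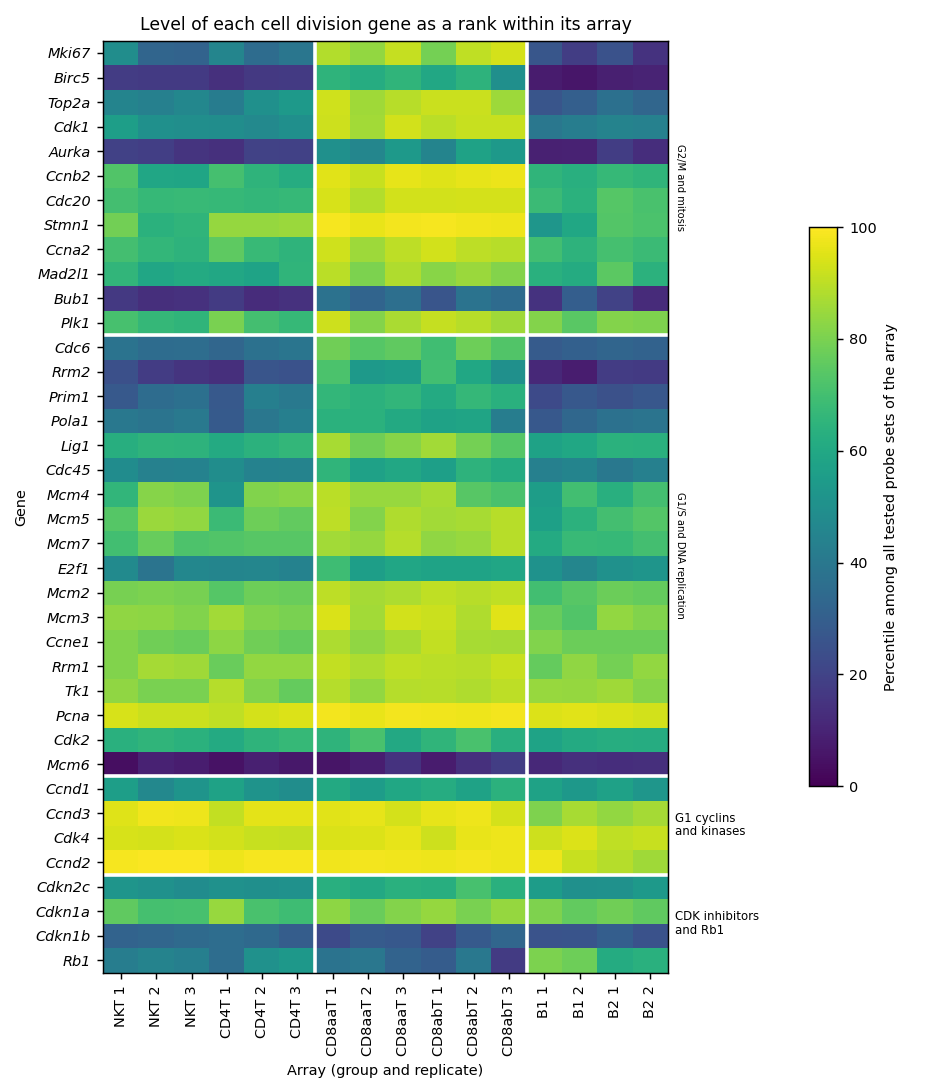
Level of the 38 cell division genes (rows, grouped by role and sorted by the gap between RTOC and the other arrays) on the 16 arrays (columns), as the percentile among the 12422 probe sets of the array (colour, 0 to 100). White lines separate the roles and the 3 pairs of groups. In the upper block of G2/M genes the 6 RTOC columns are brighter than the other 10 columns in 10 of 12 rows.

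Among the mitotic genes, Mki67, which codes for the proliferation marker Ki-67 and is nearly silent in resting cells, had the widest gap, 57.3 points. Its percentile was 79.2 at the lowest, 89.4 at the median and 93.7 at the highest of the RTOC arrays, against 14.6, 32.1 and 49.0 in the spleen and peritoneal arrays. The lowest RTOC array was above the highest of the other arrays by a wide margin. Top2a, the topoisomerase that untangles replicated chromosomes, lay at 85.4 to 92.9 (median 90.6) in RTOC arrays and at 26.4 to 54.1 (median 42.6) in the others. Cdk1, the kinase that drives entry into mitosis, lay at 86.0 to 93.3 (median 91.5) in RTOC arrays and at 39.5 to 56.0 (median 48.0) in the others. Its partner cyclin Ccnb2 lay at 91.5 to 97.1 in RTOC arrays and at 58.8 to 73.0 in the others, a gap of 30.7 points. All of these ranges were free of overlap.

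Other mitotic genes lay apart in the same direction. Birc5, the survivin subunit of the chromosomal passenger complex, lay at 49.7 to 65.3 in RTOC arrays, against 6.05 to 17.6 in the others, a gap of 48.2 points. Aurka, the kinase of the spindle poles, lay at 45.1 to 57.6 in RTOC arrays, against 9.2 to 19.6 in the others, a gap of 35.4 points. Stmn1, whose product stathmin destabilises microtubules, Cdc20, which activates the ubiquitin ligase of anaphase, Ccna2, the cyclin of S phase and G2, and Mad2l1, a spindle checkpoint protein, had gaps of 21.2 to 26.2 points with no overlap. The exceptions were Bub1, a checkpoint kinase, at 26.2 to 38.1 in RTOC arrays and 12.3 to 29.7 in the others, and Plk1, a mitotic kinase, at 81.4 to 92.5 in RTOC arrays and 65.6 to 81.6 in the others. In both the ranges touched, and in both the RTOC median was the higher value. In quantile-normalized log2 levels the gap was 3.21 for Stmn1, 2.31 for Birc5 and 1.69 for Aurka, an order that differs from that in points.

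Among the genes of G1/S and DNA replication 11 of 18 stood apart in this way. Cdc6, which loads the replicative helicase, lay at 69.3 to 78.2 in RTOC arrays and 28.7 to 38.8 in the others, a gap of 40.4 points. Rrm2, the regulated subunit of ribonucleotide reductase, lay at 50.1 to 71.6 in RTOC arrays and 8.2 to 26.5 in the others, a gap of 40.1 points. Prim1, a primase subunit, lay at 61.1 to 66.6 in RTOC arrays and 22.4 to 43.1 in the others. Pcna, the sliding clamp of DNA polymerases, also had no overlap, with a gap of 4.39 points, or 1.26 in quantile-normalized log2 levels. It was among the brightest probe sets on every array, at 96.8 to 98.3 in RTOC arrays and 90.6 to 95.6 in the others. Of the 6 subunits of the MCM helicase, Mcm2 and Mcm7 stood apart without overlap, with gaps of 12.2 and 14.2 points, while Mcm3, Mcm4, Mcm5 and Mcm6 overlapped.

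None of the 4 G1 cyclins and kinases stood apart on all 16 arrays. Ccnd2, a D-type cyclin, lay at 97.5 to 98.2 in RTOC arrays, inside the range of 85.9 to 99.3 in the others. Cdk4, its kinase partner, lay at 92.4 to 97.4 in RTOC arrays and 90.3 to 94.6 in the others, and Ccnd1 and Ccnd3 overlapped as well. Among the inhibitors, Cdkn2c, which binds Cdk4 and Cdk6, was the exception, at 60.3 to 70.8 in RTOC arrays and 48.8 to 55.3 in the others. Cdkn1a, which codes for p21, lay at 77.3 to 84.2 in RTOC arrays, inside the range of 68.8 to 84.6 in the others. Rb1 ran the other way, with a median percentile of 35.0 in RTOC arrays and 51.9 in the others and overlapping ranges. Its highest values were those of the B cells.

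**Figure D2:**
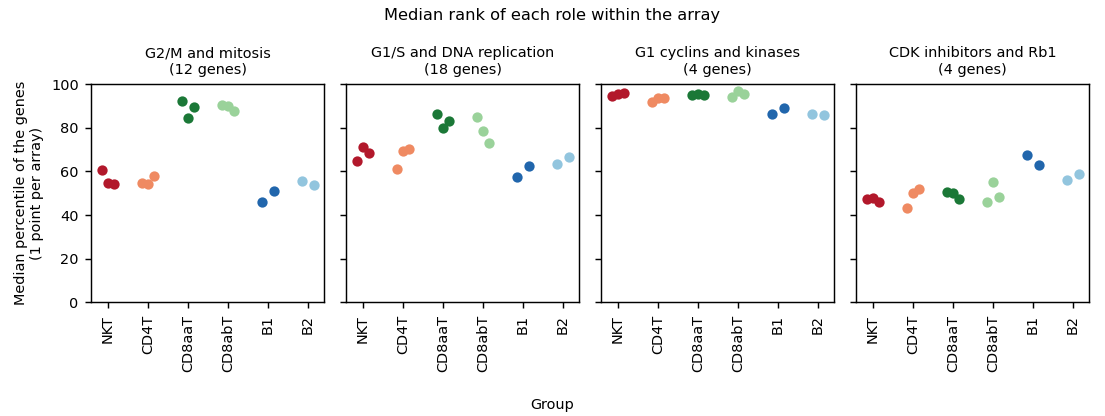
Median percentile of the genes of each role (panels), 1 point per array, by group. In G2/M and mitosis the 6 RTOC arrays (CD8aaT and CD8abT) lie between 84.4 and 92.4 and the other arrays between 46.0 and 60.9, while in the G1 cyclins and kinases the RTOC arrays overlap with the splenic T cell arrays.

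Each RTOC group was then counted by itself, and other parts of the arrays as well. A gene that stood apart on all arrays also does so on part of them. The counts on parts of the arrays, and their backgrounds, could therefore only stay or rise and are no separate support. Taken alone against the 10 spleen and peritoneal arrays, the 3 CD8aaT arrays were all higher for 11 of the 12 genes of G2/M and mitosis, and the 3 CD8abT arrays for 11 of the 12 as well, with 9.16% and 9.77% of all probe sets. Against the 6 splenic T cell arrays alone, the RTOC arrays were all higher for 12 of 12, beside 9.19% of all probe sets. Without replicate 1 of every group it was also 12 of 12, beside 16.3%. In that setting 1 of 4 G1 cyclins and kinases (Ccnd1) and 2 of 4 inhibitors (Cdkn1a and Cdkn2c) stood apart as well, while CD8aaT alone, CD8abT alone and the comparison with splenic T cells gave 0 of 4 and 1 of 4. The median percentile of the G2/M genes, averaged over the arrays of a group, was 88.8 in CD8aaT, 89.4 in CD8abT, 56.5 in NKT, 55.5 in CD4T, 48.5 in B1 and 54.9 in B2. For G1/S and DNA replication it was 83.2 in CD8aaT, 78.9 in CD8abT, 68.0 in NKT, 67.0 in CD4T, 60.0 in B1 and 65.1 in B2.

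Other properties of the arrays moved with the culture. The Gapdh control probe sets of the 3′ end read higher than those of the 5′ end, as they do when RNA is shortened, with a ratio of 7.37 to 30.4 in RTOC arrays and 5.11 to 8.48 in the others. About 50000 cells were sorted for an RTOC sample and about 100000 for the others. RTOC replicate 3 had the lowest ratios of the culture, 7.37 in CD8aaT and 9.47 in CD8abT. Those 2 arrays alone were above the 10 others for 12 of 12 genes of G2/M and mitosis, beside 14.1% of all probe sets. The same held for 2 of 4 G1 cyclins and kinases (Ccnd1 and Cdk4). As part of the RTOC arrays, these 2 could not give a lower count than all of them. Culture, scale of the deposited values, cell number and cell state cannot be told apart across these groups. All RTOC arrays were above the rest for Sox4, 1 of 8 measured markers of double-positive thymocytes. The same held for Col3a1, 1 of 10 markers of stroma and epithelium, and Alas2, 1 of 4 erythroid markers, beside 6.01% of all probe sets. RTOC arrays were all below the rest for Hba-a1, another erythroid marker, and for 0 thymocyte or stroma markers, beside 4.68% of all probe sets. The median percentile of the thymocyte list was 68.2 in CD8aaT, 72.7 in CD8abT, 63.0 in NKT, 66.8 in CD4T, 69.6 in B1 and 73.5 in B2. For stroma and epithelium it was 42.7 in CD8aaT and 44.0 in CD8abT, against 38.8 to 42.2 in the other groups. For the erythroid list it was 50.9 and 54.7, against 42.9 to 48.7.

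The pattern was also counted in other genes of the cycle. From further lists of cell cycle genes, 22 of 40 measured genes of G2/M and mitosis had all RTOC arrays above the rest, among them the kinase Aurkb, the kinesins Kif11 and Kif20a and the midzone protein Prc1. The same held for 11 of 35 genes of G1/S and DNA replication, among them Mcm10 and the checkpoint kinase Chek1, and for 3 of 14 G1 regulators, which were Cdkn1c, Mycn and Tfdp1. These counts stand beside the 6.01% of all probe sets above. All RTOC arrays were below the rest for 2 of the 14 G1 regulators, Ccng1 and E2f3, for 1 of the 35 genes of G1/S and DNA replication, Rfc1, and for 0 of the 40 of G2/M and mitosis, beside 4.68% of all probe sets. Further, dimmer probe sets of the same genes mostly did not repeat the pattern. Of 18 such probe sets of 16 genes, 4 had all RTOC arrays above the rest. Among the 22 genes that stood apart 5 had a further probe set, and it stood apart for E2f1 and not for Lig1, Mki67, Rrm1 or Stmn1. The other 3 were those of Mcm3 and both of Plk1, genes whose brightest probe set overlapped.

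The promoters are shown for the 4 mitotic and the 2 replication genes with the widest gaps in points among those with a window. Windows are those of the RefSeq table for GRCm38.p6, and members that move together may share promoter letters. Each window runs from 250 bases before to 50 bases after the gene start, 5′ to 3′ on the strand of the gene. The windows are chr7:135716330-135716629 on the minus strand for Mki67, chr11:117848987-117849286 on the plus strand for Birc5, chr11:99024140-99024439 on the minus strand for Top2a, chr10:69352863-69353162 on the minus strand for Cdk1, chr11:98907901-98908200 on the plus strand for Cdc6 and chr12:24708004-24708303 on the plus strand for Rrm2. Capitals mark every match, on either strand, to an E2F-type element (TTGGCGC, and also TTCCCGC, and also TTCGCGC, and also TTGCCGC), to the CHR (TTTGAA) or to the CCAAT box (CCAAT), and no capitals means no match.
Mki67: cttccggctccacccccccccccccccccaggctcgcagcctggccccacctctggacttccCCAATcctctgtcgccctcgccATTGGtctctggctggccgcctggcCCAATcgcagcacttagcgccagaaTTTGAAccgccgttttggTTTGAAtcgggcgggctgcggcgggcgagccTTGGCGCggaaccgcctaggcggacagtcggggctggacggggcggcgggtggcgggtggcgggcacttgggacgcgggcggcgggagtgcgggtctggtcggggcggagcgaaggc
Birc5: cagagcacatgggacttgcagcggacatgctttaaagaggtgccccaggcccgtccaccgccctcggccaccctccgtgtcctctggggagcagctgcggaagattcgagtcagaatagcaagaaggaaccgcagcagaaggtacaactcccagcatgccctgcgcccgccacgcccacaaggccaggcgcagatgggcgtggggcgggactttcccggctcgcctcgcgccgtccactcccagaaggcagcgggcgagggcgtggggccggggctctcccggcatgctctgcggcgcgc
Top2a: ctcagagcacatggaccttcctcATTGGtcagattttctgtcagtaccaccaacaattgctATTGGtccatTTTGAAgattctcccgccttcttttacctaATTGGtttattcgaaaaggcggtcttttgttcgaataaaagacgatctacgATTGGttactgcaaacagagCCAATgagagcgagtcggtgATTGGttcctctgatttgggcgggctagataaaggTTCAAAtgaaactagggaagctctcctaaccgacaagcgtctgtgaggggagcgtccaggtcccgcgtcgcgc
Cdk1: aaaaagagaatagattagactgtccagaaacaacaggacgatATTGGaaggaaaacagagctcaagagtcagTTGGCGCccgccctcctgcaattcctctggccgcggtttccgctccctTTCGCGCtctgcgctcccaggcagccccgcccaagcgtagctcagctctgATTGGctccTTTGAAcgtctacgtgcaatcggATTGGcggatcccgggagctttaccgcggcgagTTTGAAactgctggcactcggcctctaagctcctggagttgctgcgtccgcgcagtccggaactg
Cdc6: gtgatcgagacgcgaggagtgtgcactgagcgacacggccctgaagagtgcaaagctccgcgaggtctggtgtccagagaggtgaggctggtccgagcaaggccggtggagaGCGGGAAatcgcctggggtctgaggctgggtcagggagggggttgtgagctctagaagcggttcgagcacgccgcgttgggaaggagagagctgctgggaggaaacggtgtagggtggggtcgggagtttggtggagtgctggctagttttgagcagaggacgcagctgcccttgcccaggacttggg
Rrm2: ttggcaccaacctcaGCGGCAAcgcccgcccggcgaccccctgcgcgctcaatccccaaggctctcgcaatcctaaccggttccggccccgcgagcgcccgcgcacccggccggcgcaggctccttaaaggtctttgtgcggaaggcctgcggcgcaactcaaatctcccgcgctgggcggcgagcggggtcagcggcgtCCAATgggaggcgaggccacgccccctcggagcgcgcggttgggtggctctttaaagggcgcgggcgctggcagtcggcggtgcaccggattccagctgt

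In the Mki67 window the CHR letters begin 116 and 98 bases before the start and an E2F-type match 67 bases before it. Top2a has CHR letters 179 and 23 bases before the start, and Cdk1 has them 71 and 15 bases before it, together with E2F-type matches at 178 and 130 bases. Cdc6 has an E2F-type match 138 bases before the start and Rrm2 has its own at 235 bases, and neither has the CHR letters. The Birc5 window holds none of the 3 elements, which says only that these letters are absent from it.

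Of the 42 genes, 36 had a window, some of them several, and genes were counted by role. A gene was counted where any of its windows held the letters. CHR letters were found for 7 of 12 genes of G2/M and mitosis (58.3%) and 2 of 18 of G1/S and DNA replication (11.1%), beside 20.2% of all 27025 genes. E2F-type letters were found for 3 of 12 genes of G2/M and mitosis (25.0%) and 11 of 18 of G1/S and DNA replication (61.1%), beside 10.9% of all genes. The CCAAT box was found for 10 of 12 (83.3%) and 12 of 18 (66.7%) genes, beside 41.1% of all genes. The counts include genes without a probe set of their own, Ccnb1 and Cdc25b in G2/M and Tyms in G1/S. A match is a description of the letters and not of binding.

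Within the pairs, the innate-like group was set against its adaptive counterpart. limma, fitted over all 16 arrays with Benjamini-Hochberg adjustment over 12422 probe sets, called 0 of 38 genes at an adjusted p under 0.05 in each of the 3 pairs, with a background of 1.63% of all probe sets called in NKT minus CD4T, 0.185% in CD8aaT minus CD8abT and 1.14% in B1 minus B2. Unadjusted p was under 0.05 for 2, 1 and 3 genes in these pairs (5.26%, 2.63% and 7.89%), beside 6.21%, 6.03% and 4.78% of all probe sets. The difference lay within 0.5 on the log2 scale for 34, 36 and 33 of the 38 genes (89.5%, 94.7% and 86.8%), beside 94.5%, 93.2% and 93.5% of all probe sets, so these shares are near the background. The standard errors had a median of 0.19, 0.19 and 0.24, so the intervals of single genes were wide: for Mki67 the difference was -0.15 in NKT minus CD4T with a 95% interval of -0.97 to 0.68, -0.01 in CD8aaT minus CD8abT with -0.84 to 0.81, and 0.07 in B1 minus B2 with -0.94 to 1.08. Replicates are called biological by the submitters without naming animals, so the p-values speak only of how far these samples spread.

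**Figure D3:**
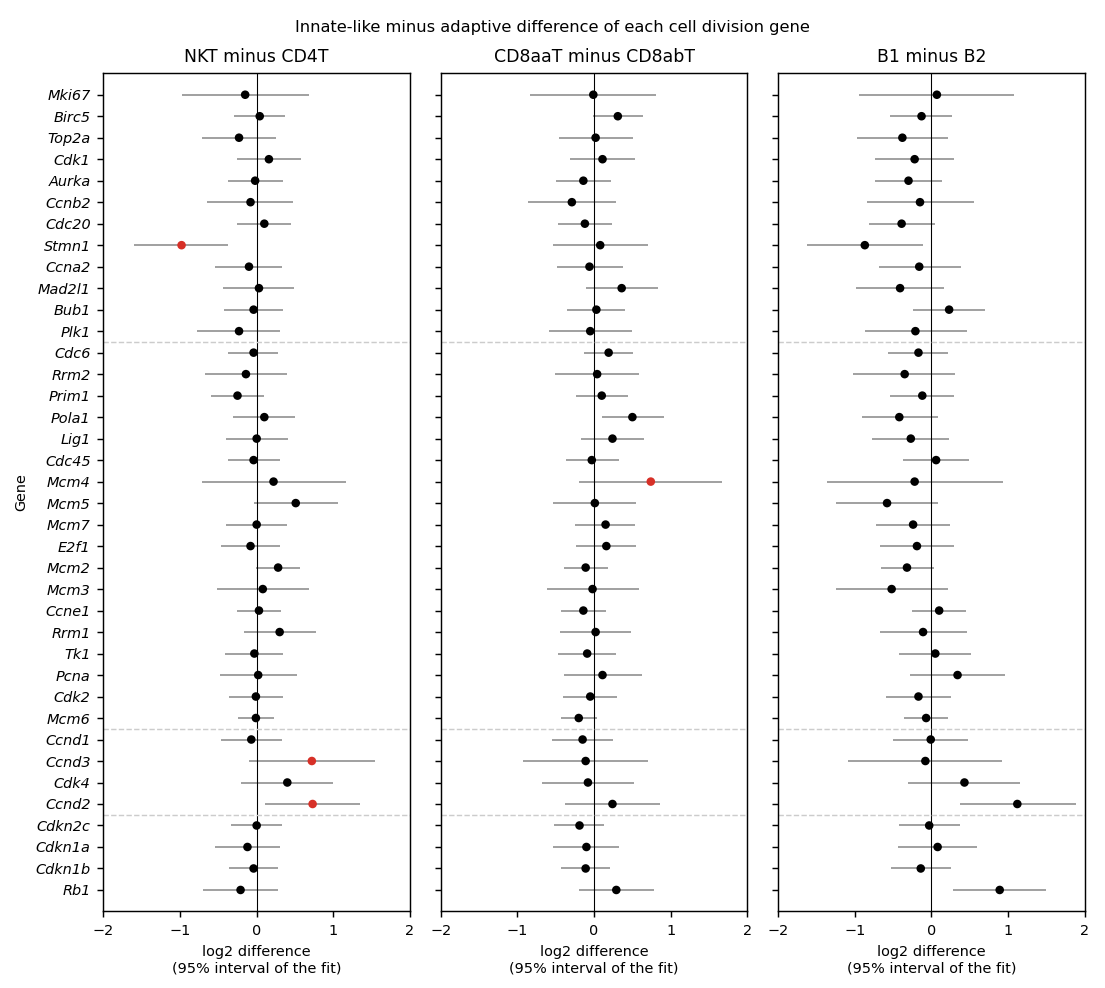
Innate-like minus adaptive log2 difference of each of the 38 genes (points) with the 95% interval of the limma fit (lines), by pair. Red points are the genes of the T cell pairs called once the replicate number was added as a block: Ccnd2, Ccnd3 and Stmn1 in NKT minus CD4T and Mcm4 in CD8aaT minus CD8abT. Dashed lines separate the roles, in the order G2/M and mitosis, G1/S and DNA replication, G1 cyclins and kinases, CDK inhibitors and Rb1.

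In NKT against CD4T cells the G1 cyclins and kinases had the largest median difference, 0.56, while the medians of the other roles lay between -0.08 and 0.00 and that of all probe sets was -0.03. Ccnd2 had log2 levels of 10.51, 11.05 and 11.01 in NKT arrays, against 9.53, 10.36 and 10.48 in CD4T arrays. Every NKT array was above every CD4T array, though replicate 1 was the lowest in both groups. The difference was 0.73 ± 0.29 (SE), or 1.66-fold, with an adjusted p of 0.52 in limma without a block and 0.014 with a block for the replicate number. Without replicate 1 of CD4T it was 0.44 ± 0.27. Ccnd3, another D-type cyclin, had 9.06, 10.08 and 9.95 in NKT arrays, against 8.16, 9.33 and 9.45 in CD4T arrays. The groups overlapped through replicate 1 of NKT, while each NKT array was above the CD4T array of its own number. Its difference was 0.72 ± 0.38 (adjusted p of 1.0 in limma without the block and 0.0058 with it). Without replicate 1 of CD4T it was 0.31 ± 0.36, and without replicate 1 of NKT 1.04 ± 0.40.

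Stmn1 had the most negative difference of the 38 genes. It read 7.31, 6.42 and 6.53 in NKT arrays, against 7.55, 7.76 and 7.90 in CD4T arrays. All NKT arrays were below all CD4T arrays, replicate 1 by the least. The difference was -0.98 ± 0.29, or 1.98-fold lower in NKT, with an adjusted p of 0.17 in limma without the block and 0.032 with it. Without replicate 1 of NKT it was -1.26 ± 0.28 (adjusted p of 0.047 in limma), and without replicate 1 of every group -1.36. Both rest in NKT on the close replicates 2 and 3, so the fits may overstate the precision. A dimmer probe set of Stmn1 gave -0.15 ± 0.22, far smaller than the brighter set. The 3 calls with the block are of 38 genes, beside 4.84% of all probe sets called in that fit, and no other gene of the 38 was called in this pair.

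The other differences of the pair were called in neither fit. Mcm5, a subunit of the replicative helicase, had 7.00, 7.91 and 7.80 in NKT arrays, against 6.66, 7.31 and 7.20 in CD4T arrays, a difference of 0.51 ± 0.25. NKT replicate 1 lay among the CD4T arrays, and the difference was 0.80 without that array and 0.31 without replicate 1 of CD4T. Prim1 had 4.57, 4.82 and 4.92 in NKT arrays, against 4.67, 5.29 and 5.09 in CD4T arrays, and Plk1 had 6.84, 6.61 and 6.53, against 7.27, 6.80 and 6.61. The groups overlapped in both genes, and the differences were -0.25 ± 0.16 and -0.23 ± 0.25, with ranges of -0.42 to -0.11 and -0.38 to -0.05 as single arrays were left out. Arrays of the groups did not overlap, with NKT higher, for Ccnd2, Cdk4, Mcm2 and Cdc20, 4 of 38 genes beside 7.19% of all probe sets. NKT was lower without overlap for Stmn1 alone among the 38, beside 5.02%. Of the 12 genes of G2/M and mitosis 11 were within 0.5, among them Top2a at -0.23 ± 0.22 and Cdk1 at 0.16 ± 0.20.

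Markers of other cells moved in the same pair. Here limma called 1.63% of all probe sets. Of 11 pan-B genes 3 (Cd72, H2-Aa and H2-Ab1) were called higher in NKT, with a median difference of 0.28 over the list. Their summed intensity over the list was 1910 to 3530 in NKT arrays and 1230 to 2160 in CD4T arrays. Of 12 macrophage genes 2 (Csf1r and Lyz2) were called higher, with a median difference of 0.1 over the list. The macrophage sums were 1500 to 1760 in NKT and 1430 to 2690 in CD4T. Most of these sums is 1 gene, Ctss, with a mean log2 of 10.03 in NKT and 10.7 in CD4T. Of 8 thymocyte markers 1, Dntt, was called lower. No marker was at 0 on this scale, and their part in the differences of Ccnd2, Ccnd3 and Stmn1 was not tested.

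**Figure D4:**
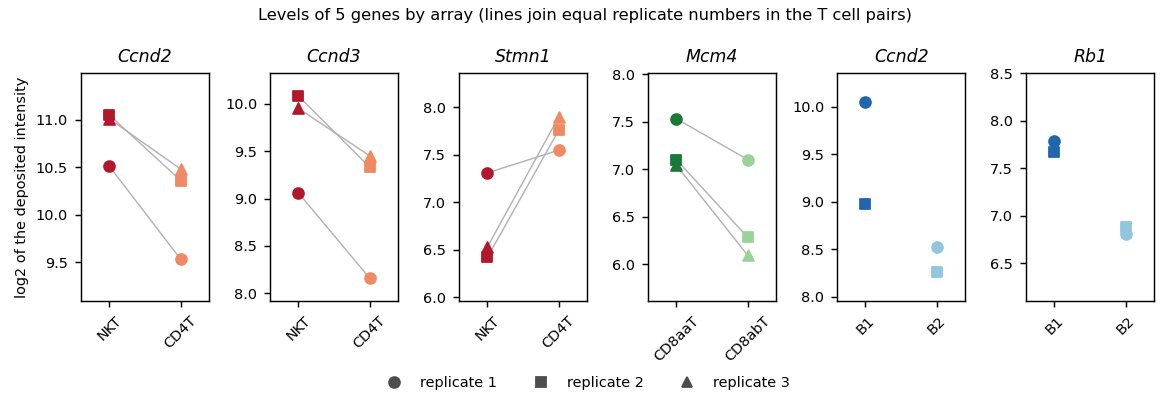
Log2 of the deposited intensity by array for 5 genes (panels), with the innate-like group left of the adaptive group, symbols for the replicate number and lines joining equal numbers in the T cell pairs. All panels span the same height in log2 units. Ccnd2, Ccnd3 and Stmn1 differ between NKT and CD4T in every pair of equal numbers, as Mcm4 does between CD8aaT and CD8abT, while Ccnd2 and Rb1 are higher in both B1 arrays than in both B2 arrays.

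CD8aaT and CD8abT cells, the groups with the high ranks of mitotic genes, were next set against each other. The median difference was 0.01 over the G2/M genes and 0.03 over the G1/S genes, with -0.05 over all probe sets. Mcm4, a helicase subunit, had 7.53, 7.10 and 7.04 in CD8aaT arrays, against 7.10, 6.28 and 6.09 in CD8abT arrays. The groups overlapped through replicate 1 of CD8abT, and each CD8aaT array was above the CD8abT array of its own number. Its difference was 0.74 ± 0.43, or 1.67-fold, with an adjusted p of 0.89 in limma without the block and 0.036 with it. Without replicate 1 of every group it was 0.89. Mcm4 was the 1 gene of 38 called with the block, beside 3.2% of all probe sets.

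Pola1, the catalytic subunit of DNA polymerase alpha, was the only one of the 38 genes whose CD8aaT arrays all lay above the CD8abT arrays, beside 5.76% of all probe sets. It had 5.59, 5.66 and 5.52 in CD8aaT arrays, against 5.28, 5.38 and 4.60 in CD8abT arrays, where replicate 3 was the lowest. The difference was 0.50 ± 0.19 (adjusted p of 0.69 in limma, 0.11 with the block), and 0.26 without that replicate. Mad2l1 had 7.52, 6.72 and 7.36 in CD8aaT arrays, against 6.69, 7.08 and 6.75 in CD8abT arrays. It overlapped and differed by 0.36 ± 0.22. No gene of the 38 had all CD8aaT arrays below the CD8abT arrays, beside 5.51% of all probe sets.

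The most negative differences in this pair were not called either. Ccnb2 had 8.59, 7.89 and 8.83 in CD8aaT arrays, against 8.36, 8.78 and 9.04 in CD8abT arrays, a difference of -0.29 ± 0.26. Mcm6, a dim helicase subunit, had 3.16, 3.06 and 3.33 in CD8aaT arrays, against 3.36, 3.30 and 3.48 in CD8abT arrays, a difference of -0.20 ± 0.11. Cdkn2c had 5.56, 5.47 and 5.67 in CD8aaT arrays, against 5.53, 6.08 and 5.67 in CD8abT arrays, a difference of -0.19 ± 0.15. In all of these the groups overlapped. For the mitotic kinase Cdk1 the difference was 0.11 with a 95% interval of -0.31 to 0.53, and for Top2a it was 0.02 with an interval of -0.46 to 0.51.

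In B1 against B2 cells 0 of 38 genes were called without a block. Of the G1 cyclins and kinases, Ccnd2 and Cdk4 were above 0 while Ccnd1 (-0.01 ± 0.23) and Ccnd3 (-0.08 ± 0.47) were near 0, and 14 of 18 genes of G1/S and DNA replication and 10 of 12 of G2/M and mitosis were below 0, beside 62.8% of all probe sets. The median difference was 0.21 for the G1 cyclins and kinases, -0.18 for G1/S and DNA replication and -0.21 for G2/M and mitosis, with -0.05 over all probe sets. Ccnd2 had 10.05 and 8.98 in B1 arrays, against 8.52 and 8.26 in B2 arrays. Both B1 arrays were above both B2 arrays, replicate 1 by more. The difference was 1.12 ± 0.35, or 2.18-fold (adjusted p of 0.31 in limma). Without replicate 1 of B1 it was 0.59 ± 0.37 (adjusted p of 0.91), and without replicate 2 of B1 1.66 ± 0.37 (adjusted p of 0.083). Rb1 had 7.79 and 7.67 in B1 arrays, against 6.81 and 6.88 in B2 arrays, close within each group and apart between them, with a difference of 0.89 ± 0.28, or 1.85-fold (adjusted p of 0.32 in limma). Its dimmer probe set gave 0.80 ± 0.20 (adjusted p of 0.11). Cdk4 had 8.93 and 9.47 in B1 arrays, against 8.67 and 8.88 in B2 arrays, a difference of 0.43 ± 0.34, which was 0.70 without replicate 1 of B1 and 0.16 without replicate 2. B1 was higher without overlap in 4 of 38 genes, Ccnd2, Cdk4, Rb1 and Pcna, beside 12.2% of all probe sets. With the replicate number as a block, although 2 arrays a group were too few to pair by number, Ccnd2 and Rb1 were the 2 genes called, beside 2.84% of all probe sets.

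On the other side, 19 of 38 genes had both B1 arrays below both B2 arrays, beside 20.1% of all probe sets. They were 11 of 18 genes of G1/S and DNA replication and 8 of 12 genes of G2/M and mitosis. With each array centred on its median the count was 16 (42.1%), beside 16.1% of all probe sets, and after quantile normalization over all arrays 16, beside 17.9%. No single gene of these was called, and all of these genes were read on the same 2 arrays per group. Stmn1 had 6.35 and 6.61 in B1 arrays, against 7.40 and 7.29 in B2 arrays, a difference of -0.87 ± 0.35 (adjusted p of 0.79 in limma). Mcm5 had 6.58 and 6.84 in B1 arrays, against 7.21 and 7.36 in B2 arrays, and Mcm3 had 7.59 and 7.34, against 8.08 and 7.88. These helicase subunits differed by -0.58 ± 0.31 and -0.52 ± 0.34. Mcm2 (-0.32 ± 0.16), Mcm7 (-0.24 ± 0.22) and the dim Mcm6 (-0.07 ± 0.14) also had both B1 arrays below both B2 arrays. Pola1 (-0.42 ± 0.23), Mad2l1 (-0.41 ± 0.26), Cdc20 (-0.39 ± 0.20) and Top2a (-0.38 ± 0.27) lay on the same side.

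Markers of other cells were also called in this pair, where limma called 1.14% of all probe sets. Of 12 macrophage markers 1 was called higher in B1, Lyz2 by 2.29. The sums over the list were 4670 to 4920 in B1 arrays and 4380 to 5270 in B2 arrays. Most of these sums is 1 gene, Ctss, with a mean log2 of 11.95 in B1 and 12.01 in B2, so they say little of the other markers. Of 10 markers of stroma and epithelium 1 was called higher, Epcam by 1.17 (adjusted p of 0.00087 in limma), with sums of 854 to 903 in B1 arrays and 857 to 867 in B2 arrays. Of 11 pan-B genes 2 were called lower in B1, Cd72 by a difference of -4.05 and Cd22 by one of -0.87, with sums of 22900 to 25100 in B1 arrays and 28200 to 30200 in B2 arrays. None of 10 pan-T genes was called without the block and 1 was with it, Cd2, higher in B1 by 1.25. Their sums were 2680 to 3140 in B1 arrays and 1480 to 2040 in B2 arrays. Cd2 was the brightest of the list, with a mean log2 of 11.06 in B1 and 9.82 in B2. Besides Cd2 only Cd5 (0.36) was above 0, and the median difference over the list was -0.08. The part of these markers in the values of the cell division genes was not tested.

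Over the average of the 3 pairs limma called 0 of 38 genes, beside 1.61% of all probe sets, with 3 at an unadjusted p under 0.05 (7.89%, beside 7.89% of all probe sets). Ccnd2 came nearest, with an average difference of 0.70 ± 0.18 (adjusted p of 0.083 in limma, and 0.001 once the replicate number entered as a block), and it was above 0 in each pair. Without replicate 2 of B1 the average was 0.88 ± 0.17 (adjusted p of 0.022). Stmn1 had an average of -0.59 ± 0.18 (adjusted p of 0.20 in limma, and 0.037 with the block), from -0.98 and -0.87 in the NKT and B1 pairs and 0.08 ± 0.29 in the CD8aaT pair. These 2 genes were called with the block, beside 5.59% of all probe sets. The block also covered the B cell arrays, whose numbers were not taken to pair them. Only Ccnd2 and Pcna of the 38 (5.26%) were above 0 in all 3 pairs, beside 10.6% of all probe sets, and 9 (23.7%) were below 0 in all 3, beside 27.2%.

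Differences between the pairs were tested directly. Without a block limma called 0 of 38 genes between any 2 pairs, with 1, 3 and 2 at an unadjusted p under 0.05 (beside 5.05%, 6.11% and 4.11% of all probe sets). At the adjusted threshold limma called 0.692% of all probe sets for the NKT pair minus the CD8aaT pair, 1.35% for the NKT pair minus the B1 pair and 0.733% for the CD8aaT pair minus the B1 pair. With the block, the difference of Ccnd3 was larger in the NKT pair than in the CD8aaT pair by 0.83 (adjusted p of 0.029 in limma) and than in the B1 pair by 0.80 (adjusted p of 0.042). In the same fit the difference of Mcm5 was larger in the NKT pair than in the B1 pair by 1.09 (adjusted p of 0.027), and that of Rb1 was smaller there, at -1.10 (adjusted p of 0.034). That fit called 3.02% of all probe sets between the NKT and CD8aaT pairs and 4.61% between the NKT and B1 pairs. Between the CD8aaT and B1 pairs it called 2.21% of all probe sets and 0 of the 38 genes. The comparisons with the B1 pair in that fit rest on a block in the B cell arrays, whose numbers were not taken to pair them.

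Among the further cell cycle genes, 2 were called in NKT minus CD4T, 2 in B1 minus B2 and 0 in CD8aaT minus CD8abT without the block, beside 1.63%, 1.14% and 0.185% of all probe sets. In NKT cells Smc4, a subunit of condensin, was lower, with a difference of -1.44 ± 0.24 (adjusted p of 0.0044 in limma), with means of 9.52 in NKT and 10.96 in CD4T arrays. Pole2, a subunit of DNA polymerase epsilon, was lower, with a difference of -0.78 ± 0.14 (adjusted p of 0.0072), with means of 4.63 and 5.41. They are 1 of 40 genes of G2/M and mitosis and 1 of 35 of G1/S and DNA replication, and 0 of 14 G1 regulators were called without the block, with 2 at an unadjusted p under 0.05. Rbl2, which codes for the Rb1 relative p130, had the largest difference in the other direction, 1.83 ± 0.46 (adjusted p of 0.074 in limma and 0.00057 with the block). The block also called Cdkn2d (-0.75, adjusted p of 0.025), Rpa1 (-0.46, 0.040), Kif23 (-0.74, 0.025) and Hmgb2 (0.62, 0.043) in this pair, where it called 4.84% of all probe sets. In B1 cells Myc, a transcription factor that drives growth and G1 entry, was higher by 1.70 ± 0.27 (adjusted p of 0.0044), with means of 6.83 in B1 and 5.13 in B2 arrays. Racgap1, which acts in cytokinesis, was higher by 0.83 ± 0.17 (adjusted p of 0.031), with means of 7.07 and 6.24. With the block, beside 2.84% of all probe sets, Nek2, a centrosomal kinase, was called higher by 1.12 (adjusted p of 0.0022) and Tfdp1 by 1.08 (adjusted p of 0.044). In CD8aaT against CD8abT cells 0 of the 14, 35 and 40 further genes were called by limma without the block, with 0, 2 and 2 at an unadjusted p under 0.05. With the block, 1, 1 and 2 of them were called, beside 3.2% of all probe sets. Rbl1, another Rb1 relative, was higher in CD8aaT by 0.82 (adjusted p of 0.038) and Slbp, which binds histone mRNA, by 0.75 (adjusted p of 0.047). Kif23, a kinesin of cytokinesis, and the transcription factor Mybl2 were lower, with differences of -0.83 (adjusted p of 0.029) and -0.49 (adjusted p of 0.024).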

How the data were processed

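RNA of sorted mouse lymphocytes was measured on 16 Affymetrix arrays, 1 per sample, in 6 groups taken from the sample titles. Per the labels' protocols, RNA was extracted with TRIZOL, and about 2 µg of amplified RNA was turned into biotinylated cRNA. The authors deposited 1 intensity per probe set and array, on a linear scale, made with RMA per the submitters' processing notes. The RMA version, the settings and the arrays normalized with each other are not stated in them, and RMA draws differences of dim probe sets toward 0. Tests did not include the 66 control probe sets. The platform annotation paired 10833 of 12422 probe sets with 1 symbol, 396 with several and did not list 1193.

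The log2 of the deposited intensities was fitted with limma 3.58.1 (functions lmFit and eBayes of R 4.3.3), as 6 group means over 16 arrays with two-sided tests and Benjamini-Hochberg adjustment over 12422 probe sets per contrast, called under 0.05. The script was tested on simulated data. Percentiles rank a probe set within its array. Promoter windows came from RefSeq, assembly GRCm38.p6, and tables were handled with pandas 2.3.3. The replicate number was taken to pair the arrays of the T cell pairs, since deviations from group means correlated at 0.76, 0.65 and 0.67 (NKT with CD4T) and at 0.64, 0.60 and 0.66 (CD8aaT with CD8abT), above a minimum of 0.1. In the B cell pair, with 2 arrays a group, the numbers were not taken to pair the arrays. No label states the pairing, and it was read from the values alone. In NKT and CD4T, arrays of replicates 2 and 3 correlated with each other too, at 0.57 and 0.67.

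The genes and the lists were chosen with earlier results of these data known. Each gene could be named, with values per array for those called in a fit with or without the block and for the 3 largest differences each way in a pair. Further cell cycle genes were named where called. Alternatives were the block, other normalizations, an offset of 32, a filter on the dimmest 40% of probe sets, fits on 2 groups, a robust prior, a minimum difference of 1, the mean of a gene's probe sets and leaving out arrays.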

Additional observations from a re-analysis of the deposited data

How the results depend on the processing

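The count of genes called in a pair was 0 of 38 in the fit without a block. With the replicate block it was 3 in NKT minus CD4T (Ccnd2, Ccnd3, Stmn1), 1 in CD8aaT minus CD8abT (Mcm4), 2 in B1 minus B2 (Ccnd2 with an adjusted p of 0.0048 in limma and Rb1 with 0.039), 2 in the average of the 3 pairs (Ccnd2, Stmn1) and 3 between pairs (Ccnd3, Mcm5, Rb1). In the B cell pair the arrays share only a number. With 2 arrays a group the correlations can only be equal and opposite. They were 0.69 for equal numbers and -0.69 for unequal ones, which is too little to show a pairing. With 32 added before log2 the count was 1 in B1 minus B2 and 1 between pairs, both Rb1. Without replicate 1 of every group it was 1 in NKT minus CD4T (Stmn1), 1 in CD8aaT minus CD8abT (Mcm4) and 1 between pairs (Mcm4). Leaving out 1 array at a time gave 0 to 1 in NKT minus CD4T (Stmn1 without NKT replicate 1), 0 to 1 in the average (Ccnd2 without B1 replicate 2) and 0 in the other comparisons. Of 517 recomputed values for 20 differences of named genes, 0 changed sign and 13 passed the threshold that they had missed. These differences were named for being the largest or called in the same arrays, so their stable signs are no separate support. Each called difference passed in only 1 to 3 of its alternatives. In NKT minus CD4T the lowest adjusted p in limma was 0.014 for Ccnd2 and 0.0058 for Ccnd3. It was 0.0048 for Ccnd2 and 0.011 for Rb1 in B1 minus B2, and 0.001 for Ccnd2 and 0.037 for Stmn1 in the average. For Stmn1 in NKT minus CD4T and Mcm4 in CD8aaT minus CD8abT the lowest value came without replicate 1 of every group. The setting with a minimum difference of 1 has no p-value of its own and only left smaller differences uncalled. The 10 of 12 mitotic genes above in RTOC were 10 after quantile normalization, which keeps the order within an array and so could not change this count. They were 11 to 12 under 5 choices of arrays made after seeing the data. Each choice used part of the same arrays, so the count could not fall, and neither check is separate support. The number of arrays limits all of these counts, and the cause of the changes was not tested.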
